A study of Gallus gallus with 2 samples.

Results

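The tubulins, kinesins and cytoplasmic dyneins of the chick forebrain were measured after Notch signalling had been blocked for 16 hours. Members were the probes whose gene symbol in the deposited expression report began with TUBA, TUBB, TUBG, KIF, DYNC or DYNL, except TUBB3, a neuron marker treated with the other neuron markers. They numbered 143 of 43603 probes and 49 of 28747 genes or accessions. Each gene was represented by its brightest probe over all arrays. By role they were 10 mitotic kinesins, 8 kinesins of axonal transport, 7 other kinesins, 9 alpha and beta tubulins, 4 genes of the gamma-tubulin complex and 11 subunits of cytoplasmic dynein.

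Microtubules are hollow polymers of alpha and beta tubulin that are nucleated by rings of gamma-tubulin. Most kinesins walk towards the plus end of a microtubule, while cytoplasmic dynein carries cargo to the minus end. In a neuroepithelium the dividing progenitors use one set of kinesins to build the spindle and split the daughter cells, and the neurons that leave the cycle use another set to send vesicles and organelles down the axon. Notch keeps neighbouring cells in the progenitor state by lateral inhibition.

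The DAPT group was treated with 40 µM DAPT, a gamma-secretase inhibitor that stops the release of the Notch intracellular domain, and the DMSO group received the solvent. All embryos were from Isa Brown eggs, were collected at stage HH10 and were kept in roller culture for 16 hours, until about HH13. Each array held RNA of 5 pooled prosencephalons from the same culture, with optic vesicles and overlying tissue, hybridised in one colour to an Agilent chicken array, and there were 4 arrays per condition. Pooled tissue of several cell types was measured, so fewer cells of a type and less RNA per cell cannot be told apart. Nothing in the labels says that the 4 sets came from separate hens or days, so the tests measure the spread between these arrays.

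Arrays 1 and 2 of each condition lay on slide 1 and arrays 3 and 4 on slide 2, and the slides parted the arrays along the first principal component, which held 59.5% of the variance. Both conditions were on both slides, whereas the position on the slide and the condition cannot be told apart. Well above background were 67.8% to 80.8% of probes per array. The Notch target HEY1 had fallen by 1.52 on the log2 scale in DAPT arrays (limma, SE 0.191, adjusted p = 0.0186), with every DAPT array below every DMSO array. Among 11 markers of young neurons 8 were tested, with a median log2 fold change of 1.1. The neurofilament gene NEFM was higher by 2.22 (SE 0.286, adjusted p = 0.0191), and with the slide as a block ELAVL4 (adjusted p = 0.00591) and NEFL (adjusted p = 0.00345) passed the test as well. The excluded tubulin gene TUBB3 had a log2 fold change of -0.17 (SE 0.166, adjusted p = 1). Of the forebrain and eye genes 7 of 8 and of the neural progenitor genes 10 of 10 could be tested, with medians of 0.04 and -0.03. Some markers of other tissues in the dissected piece were well above background on all 4 arrays of either condition, or of both, and were tested. Tested were 8 of 8 genes of head mesenchyme and neural crest (median 0.18), 7 of 10 of blood and endothelium (median 0.19) and 4 of 8 of surface ectoderm (median 0.12), and none of these lists held a gene that passed the test.

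No tubulin, kinesin or dynein gene passed the test between DAPT and DMSO. Of 49 genes 48 were tested, since all 4 arrays of either condition, or of both, placed their probe well above background. Called at an adjusted p under 0.05 were 0 of 48, against 0.147% of all 19046 genes tested. The count was 0 also with the slide as a block, where 0.504% of all genes were called, and with a block for the array number, where the share was 0.714%. At an unadjusted p under 0.05 stood 1 of 48 members without a block (2.58% of all genes), 3 with the slide block (6.66%) and 5 with the array number block (8.78%). The median over the 48 members was -0.03, with 18 genes above 0, 28 below and 2 at 0. The median over all genes tested was -0.01, with 46.3% above 0 and 51.4% below.

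The median half-width of the 95% interval was 0.52 on the log2 scale without a block and 0.36 with the slide block. With the slide block the interval lay inside a 2-fold change in either direction for 48 of 48 members, and inside a 1.5-fold change for 36 of 48. Without a block it lay inside 2-fold for 46 of 48. These counts hold for the brightest probe of each gene and for the signals as deposited, and not for every probe or background correction. The second probe for KIFC3 gave -0.66 (SE 0.63). Under another background correction (normexp) KIFC1 stood at -1.05, or -0.74 relative to the median of all tested probes.

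**Figure D1:**
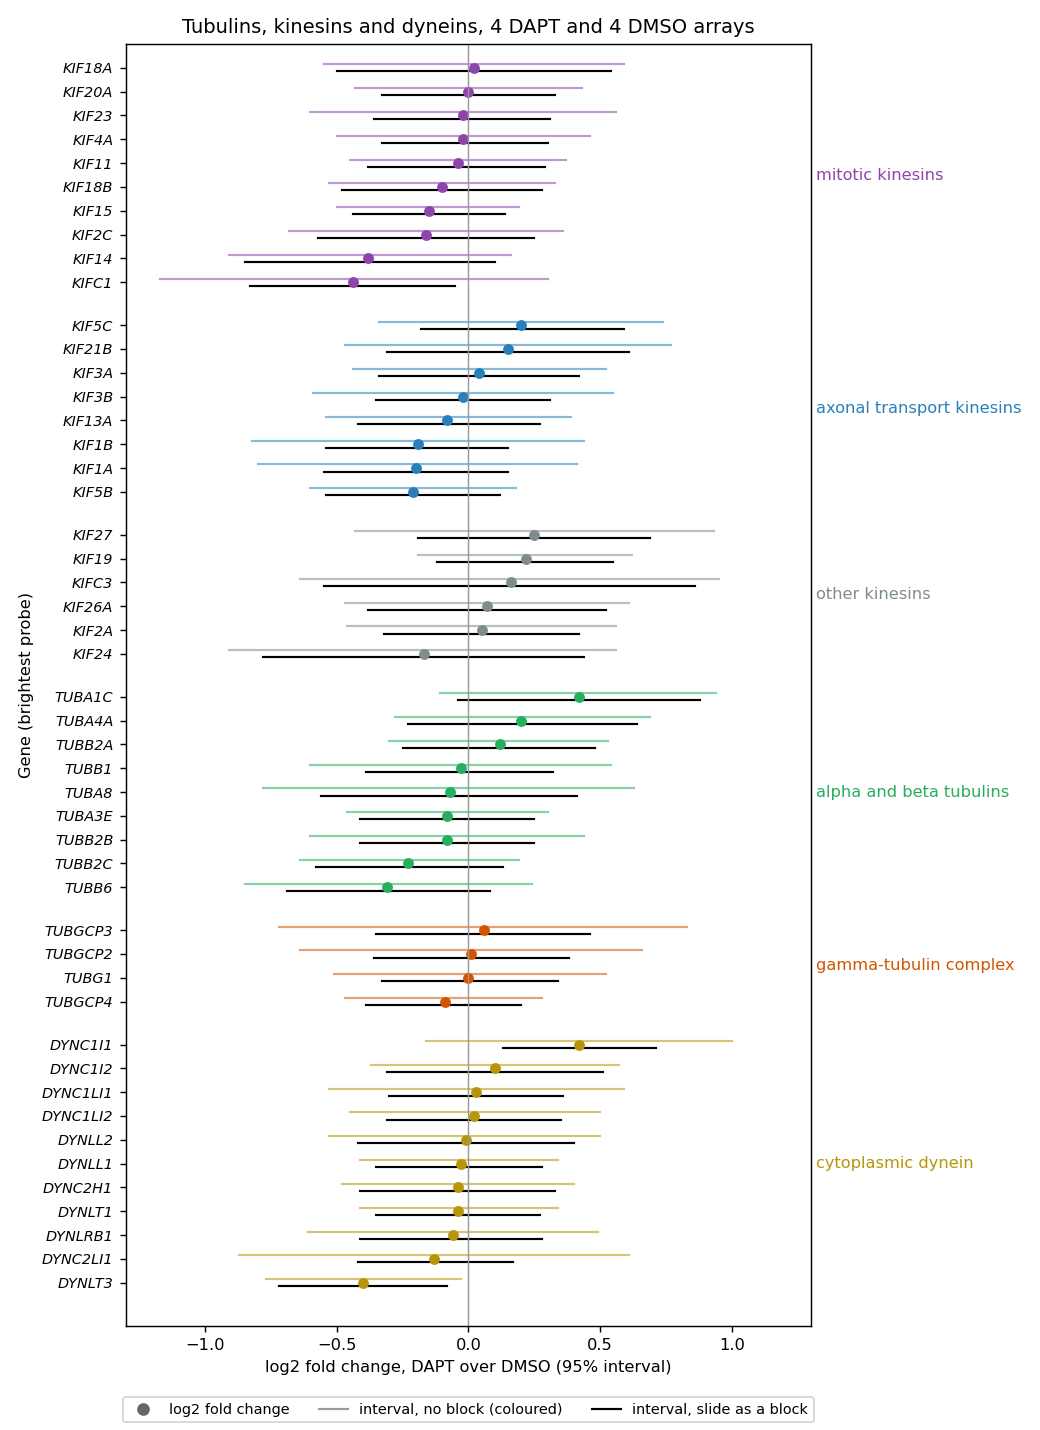
Log2 fold change of DAPT over DMSO (x axis) for the 48 tested genes, grouped by role, with 95% intervals from limma without a block (coloured lines) and with the slide as a block (black lines), 4 arrays per condition. The points lie between -0.44 and 0.42, and with the slide block the intervals of KIFC1, DYNLT3 and DYNC1I1 leave out 0 before adjustment.

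The mitotic kinesins had a median log2 fold change of -0.07, with 8 of 10 genes below 0, 1 above and 1 at 0, and 0 passed the test. KIFC1, a minus-end directed kinesin-14 that focuses spindle poles, had the lowest value of all members. Its log2 signal over the array median was 3.80, 3.90, 4.93 and 4.54 on DAPT arrays 1 to 4, against 4.71, 3.97, 5.13 and 5.11 on DMSO arrays 1 to 4. On each slide both DAPT arrays were below both DMSO arrays, but across slides the conditions overlapped, since slide 2 was brighter for this gene. The difference was -0.44 (95% interval -1.17 to 0.30). With the slide as a block the interval was -0.83 to -0.05, with an adjusted p = 0.765. All 5 probes for KIFC1 were below 0, between -0.44 and -0.19.

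KIF14, a kinesin of the midbody needed for cytokinesis, measured 1.09, 1.36, 1.13 and 0.78 on the DAPT arrays, against 0.95, 2.02, 1.46 and 1.43 on the DMSO arrays. The DMSO arrays of slide 1 held both the lowest and the highest control value, and the conditions overlapped there. Its log2 fold change was -0.38 (interval -0.91 to 0.16), and its other probe gave 0.07. KIF15, a kinesin-12 that helps to keep the spindle bipolar, read 4.20, 4.45, 4.34 and 4.25 with DAPT, against 4.45, 4.54, 4.47 and 4.39 with DMSO. The conditions overlapped by a narrow margin, and the difference of -0.15 (interval -0.50 to 0.19) was nearly equal for its 3 probes (-0.15 to -0.13). KIF2C, the kinetochore microtubule depolymerase, was at 3.97, 4.72, 4.79 and 4.40 on DAPT arrays, against 4.26, 4.55, 4.80 and 4.90 on DMSO arrays. DAPT array 1 alone lay below all controls, and the difference was -0.16 (interval -0.68 to 0.36).

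The other mitotic motors were closer to 0. KIF11, the kinesin-5 that pushes spindle poles apart, gave 4.69, 5.03, 4.78 and 4.99 with DAPT, against 4.61, 4.85, 5.13 and 5.07 with DMSO. It was higher with DAPT on slide 1, by 0.13, and lower on slide 2, by a difference of -0.22, and the mean difference was -0.04 (interval -0.45 to 0.37). KIF18A and KIF18B, which limit the length of spindle microtubules, had log2 fold changes of 0.02 and -0.10. KIF20A and KIF23, kinesin-6 motors of the central spindle and cytokinesis, had 0.00 and -0.02. KIF4A, named KIF4B in RefSeq, a kinesin-4 of condensed chromosomes and the central spindle, had -0.02, and its 5 probes ran between -0.28 and -0.02. All of these overlapped between conditions, and the slide block intervals of KIF11, KIF18B, KIF20A, KIF23 and KIF4A ended between -0.48 and 0.33, while that of KIF18A was -0.50 to 0.54.

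The kinesins of axonal transport had a median log2 fold change of -0.05, with 5 of 8 genes below 0 and 3 above, and 0 passed the test. KIF5C, a neuronal heavy chain of kinesin-1, was the highest of them. It stood at 4.33, 4.61, 4.54 and 4.83 on DAPT arrays 1 to 4, against 4.02, 4.04, 4.44 and 4.99 on DMSO arrays 1 to 4. On slide 1 both DAPT arrays exceeded both DMSO arrays, and on slide 2 the DAPT values lay between the DMSO values. The difference was 0.20 (interval -0.34 to 0.74), made up of 0.44 on slide 1 and -0.03 on slide 2. Of 8 probes for KIF5C 7 were above 0, over a range of -0.05 to 0.37.

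KIF5B, the widely expressed kinesin-1 heavy chain, was the lowest of the axonal list. It measured 4.59, 4.75, 4.54 and 4.49 with DAPT, against 4.87, 4.79, 5.03 and 4.52 with DMSO. All DAPT arrays were below 3 of the DMSO arrays, while DMSO array 4 lay among them, and the difference was -0.21 (interval -0.60 to 0.18). The other tested probes for KIF5B gave 0.00 and 0.03, so the probes of this gene disagreed. KIF1A, which carries synaptic vesicle precursors, was at 2.63, 2.24, 3.0 and 3.28 on DAPT arrays, against 2.58, 2.80, 3.09 and 3.46 on DMSO arrays. KIF1B, its close relative, was at 3.77, 3.45, 4.26 and 4.05 on DAPT arrays, against 3.67, 3.64, 4.29 and 4.70 on DMSO arrays. Both genes were brighter on slide 2 in either condition, and their differences were -0.20 (interval -0.80 to 0.41) and -0.19 (interval -0.82 to 0.44). The other tested probe for KIF1A gave -0.02, while for KIF1B 6 of 7 probes were below 0.

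KIF3A and KIF3B, the motor subunits of heterotrimeric kinesin-2 in axons and cilia, differed by 0.04 and -0.02. KIF3A read 4.69, 5.05, 4.92 and 5.03 with DAPT, against 4.56, 4.69, 4.87 and 5.42 with DMSO, so that on slide 1 both DAPT values lay above both DMSO values, the nearest of them equal after rounding, and on slide 2 the conditions overlapped. KIF13A, a motor of endosomal vesicles, differed by -0.08 (interval -0.54 to 0.39), with 3 of 3 probes below 0. KIF21B, a kinesin-4 that regulates microtubule growth in neurons, was dim. It read -2.25, -2.50, -3.22 and -2.33 on DAPT arrays, against -2.17, -2.64, -3.20 and -2.89 on DMSO arrays, and it was well above background on 3 of 4 DAPT arrays and 4 of 4 DMSO arrays. The difference of 0.15 (interval -0.47 to 0.77) was smaller than the spread of either condition.

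**Figure D2:**
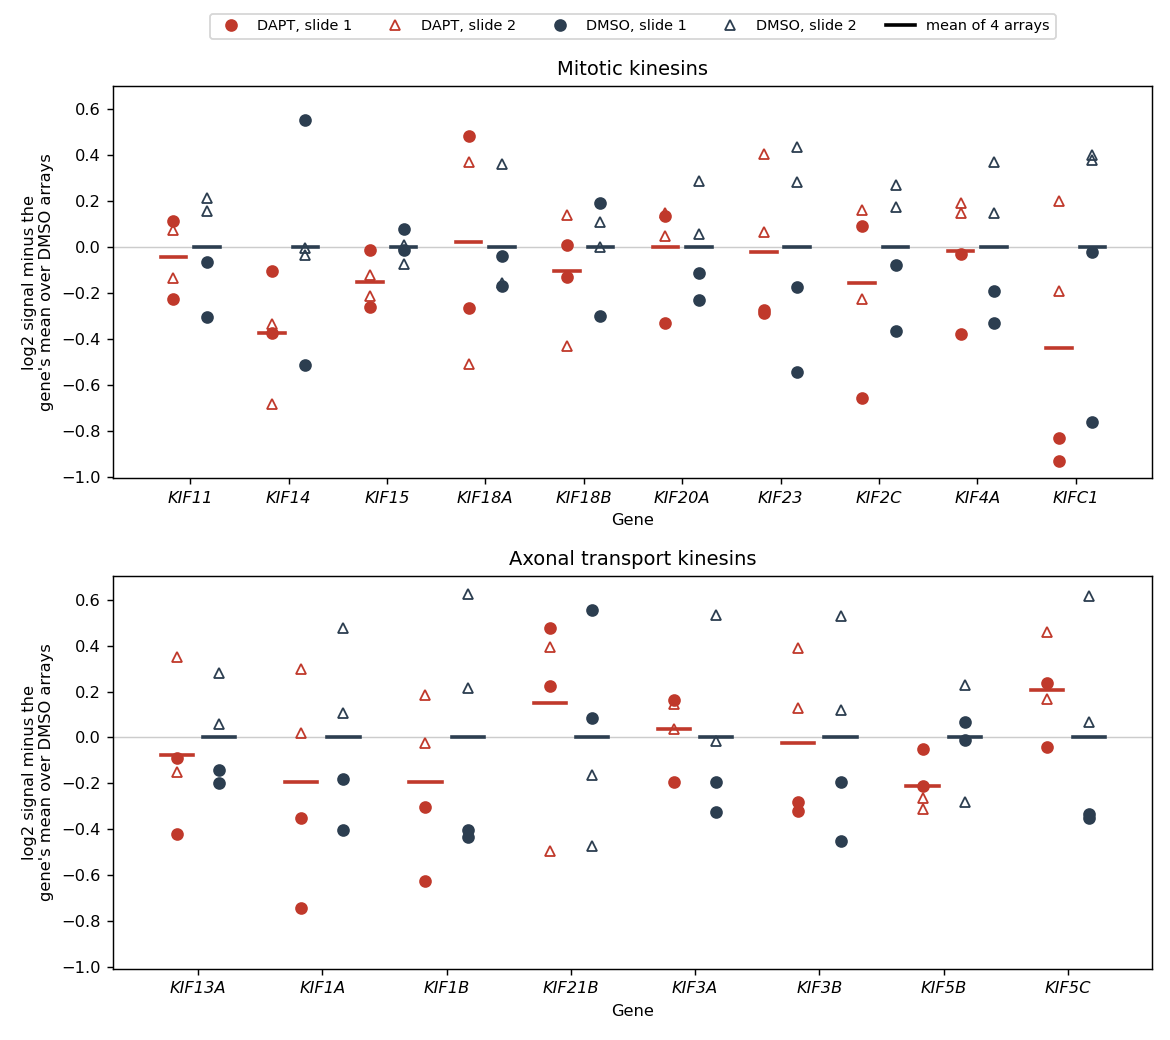
Log2 signal of each array minus the gene's mean over the DMSO arrays (y axis) for the 10 mitotic and 8 axonal transport kinesins, with DAPT (red) left of DMSO (dark), slide 1 as filled circles, slide 2 as open triangles and bars for the mean of 4 arrays. The conditions overlap for all 18 genes, and KIFC1, KIF23, KIF4A, KIF1A, KIF1B and KIF3B show the 2 slides apart in both conditions.

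Mitotic and axonal motors were close to each other, with medians of -0.07 and -0.05. The question behind this comparison was whether the motors of dividing cells and those of axons moved apart when Notch was blocked. Relative to each gene's DMSO mean, the median of the mitotic kinesins was -0.31, 0.00, 0.15 and -0.20 on DAPT arrays 1 to 4, against -0.30, -0.07, 0.16 and 0.22 on DMSO arrays 1 to 4. The same median of the axonal kinesins was -0.26, -0.07, 0.10 and 0.13 on DAPT arrays, against -0.34, -0.19, 0.09 and 0.50 on DMSO arrays. Both sets were lowest on array 1 of either condition.

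Set against each other on each array, mitotic minus axonal was -0.04, 0.07, 0.05 and -0.34 on DAPT arrays 1 to 4, and 0.04, 0.12, 0.07 and -0.28 on DMSO arrays 1 to 4. The array 4 of both conditions stood low, and the conditions overlapped. Between arrays of the same number the value was lower with DAPT in 4 of 4 pairs, by differences of -0.08 to -0.02. These were smaller than the spread between arrays of either condition. Same-numbered arrays deviated together, however, so that spread does not measure the differences between them, which were not tested. They also share a slide, and the labels name no pairs, so their deviating together does not show that the arrays are paired by number. On slide 1 the median difference between DAPT and DMSO was 0.03 for mitotic and -0.01 for axonal kinesins. On slide 2 it was -0.19 for mitotic and -0.10 for axonal kinesins. These values are given as a description, with no test over the lists. Under another background correction (normexp) both medians were lower, at -0.71 for mitotic and -0.65 for axonal kinesins, where the median of all tested probes was -0.31. Relative to that shift they were -0.40 and -0.34, and 0 members passed the test. The members stand at the brightest probe of each gene and all tested probes include dimmer ones, so that shift is not one of like probes.

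The other kinesins had a median of 0.11, with 5 of 6 tested genes above 0. KIF27, known in mouse for building motile cilia, was at 1.32, 1.68, 0.43 and 1.01 on DAPT arrays, against 0.84, 1.45, 0.35 and 0.81 on DMSO arrays. It was dimmer on slide 2 in both conditions, and the difference was 0.25 (interval -0.43 to 0.93), with 3 of 3 probes above 0. KIF19, which limits the length of cilia in mouse, measured -0.67, -0.72, -0.33 and -0.75 with DAPT, against -1.14, -0.71, -0.74 and -0.74 with DMSO. DMSO array 1 lay below the rest and DAPT array 3 above it, with a difference of 0.22 (interval -0.19 to 0.62). KIF24, a centriolar kinesin that restrains cilium formation in human cells, had 1.06, 1.40, 0.69 and 0.13 with DAPT, against 0.43, 1.65, 0.71 and 1.18 with DMSO. Its difference was 0.19 on slide 1 and -0.54 on slide 2, or -0.17 in all (interval -0.91 to 0.56).

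KIFC3, which the RefSeq table names KIFC2 by its gene identifier, differed most between slides in its direction and was chosen after its values were seen. It was at -1.08, -2.31, -1.16 and -0.47 on DAPT arrays, against -1.48, -1.12, -1.88 and -1.17 on DMSO arrays. It was dim, and well above background on 3 of 4 DAPT arrays and 4 of 4 DMSO arrays. The difference was -0.39 on slide 1 and 0.71 on slide 2. The test of that change between slides gave an unadjusted p = 0.0811 and an adjusted p = 1 in limma, the lowest unadjusted value among the 48 members. Over both slides the difference was 0.16, while the other probe for KIFC3 gave -0.66 (SE 0.63), so its probes disagreed. KIF2A, a depolymerase of spindles and neurites, and KIF26A differed by 0.05 and 0.07, while the other probes for KIF26A gave 0.43 and 0.14. KIF7, the ciliary kinesin of Hedgehog signalling, was well above background on 3 of 4 DAPT arrays and 3 of 4 DMSO arrays and was therefore not tested. It read -2.11, -2.39, -1.38 and -2.0 with DAPT, against -2.46, -2.70, -1.63 and -2.20 with DMSO. On slide 1 the DAPT arrays were above the DMSO arrays, and on slide 2 they overlapped.

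The alpha and beta tubulins had a median of -0.07, with 3 of 9 genes above 0 and 6 below, and 0 passed the test. Some tubulin genes are closely alike in their coding sequence, so a probe may take up signal from a relative, and several symbols of the report are old. TUBA1C has the gene identifier that RefSeq now calls TUBA1A, in mammals the main alpha tubulin of young neurons. It stood at 6.92, 6.56, 6.90 and 6.86 on DAPT arrays 1 to 4, against 6.21, 6.39, 5.97 and 7.01 on DMSO arrays 1 to 4. The DAPT arrays were above 3 of the DMSO arrays and below DMSO array 4. Its difference of 0.42 (interval -0.11 to 0.94) shared the highest place among all members with DYNC1I1, with 0.44 on slide 1 and 0.39 on slide 2, while its second probe gave 0.11. With the slide block the interval was -0.04 to 0.88 and the adjusted p = 0.947.

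TUBA4A, whose 4 probes RefSeq divides evenly between TUBAL3 (the brightest probe among them) and TUBA8A, was at 2.60, 2.04, 2.30 and 2.63 with DAPT, against 2.14, 2.61, 1.83 and 2.17 with DMSO. It was mixed on slide 1 and higher with DAPT on slide 2, for a difference of 0.20 (interval -0.28 to 0.69). At the low end, TUBB6 read 1.91, 1.78, 2.79 and 2.12 on DAPT arrays, against 2.25, 2.33, 2.46 and 2.79 on DMSO arrays. Both DAPT arrays of slide 1 were below the DMSO arrays there, whereas the DAPT arrays of slide 2 held the joint highest value and a low one. The difference was -0.31 (interval -0.85 to 0.24), and both probes for TUBB6 were below 0.

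TUBB2C, now TUBB4B and a beta tubulin of most tissues, was at 7.77, 7.96, 7.60 and 8.06 with DAPT, against 7.99, 7.88, 8.04 and 8.38 with DMSO, a difference of -0.23 (interval -0.64 to 0.19). The conditions overlapped on both slides, and 3 of 3 probes were below 0. TUBB2B, a beta tubulin of the developing brain in mammals, was saturated on 2 arrays. Its difference was -0.08 (interval -0.60 to 0.44). The remaining tubulins TUBA3E, TUBA8, TUBB1 and TUBB2A lay between -0.08 and 0.12. For TUBA3E, whose probes RefSeq divides between TUBA5 and TUBA3E, 1 probe of 4 stood at 0.49 and the others near -0.08. In the gamma-tubulin complex, TUBG1, the nucleating subunit, differed by 0.00 (interval -0.51 to 0.52), and its partners TUBGCP2, TUBGCP3 and TUBGCP4 by 0.01, 0.06 and -0.09.

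Cytoplasmic dynein had a median of -0.03, with 4 of 11 subunits above 0 and 7 below. In the fits with a block for the slide or the array number it held the members that came closest to a call. DYNC1I1, the intermediate chain of dynein-1 that is enriched in the mammalian brain, was at 2.99, 3.05, 3.72 and 3.68 on DAPT arrays 1 to 4, against 2.55, 2.70, 3.13 and 3.39 on DMSO arrays 1 to 4. On each slide both DAPT arrays exceeded both DMSO arrays, and the conditions overlapped only across slides. The log2 fold change was 0.42 (interval -0.16 to 1.0), with 0.40 on slide 1 and 0.44 on slide 2, and both probes were above 0 (0.42 and 0.36). With the slide block the interval was 0.13 to 0.71 and the adjusted p = 0.473, and with the array number block the adjusted p = 0.373. These were the lowest adjusted values of any member in the respective fits. Under normexp the value was -0.16, or 0.15 relative to the shift of all probes. Its broadly expressed relative DYNC1I2 differed by 0.10 (interval -0.37 to 0.57), and 4 of its 7 probes were above 0.

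DYNLT3, a Tctex-type light chain that links dynein to cargo, was the single member whose conditions did not overlap. It read 1.78, 1.59, 1.47 and 1.36 with DAPT, against 1.88, 1.83, 2.05 and 2.04 with DMSO. The 4 DAPT values were all below the lowest DMSO value, though DAPT array 1 and DMSO array 2 were close. The difference was -0.40 (interval -0.77 to -0.03, limma adjusted p = 1). It was -0.18 on slide 1 and -0.63 on slide 2, and the 3 probes for DYNLT3 ran between -0.40 and -0.20. The exact two-sided permutation p = 0.0286, unadjusted, is the smallest that 70 splits allow. Every gene without overlap gets this value, so it only restates the lack of overlap, and the splits also exchange arrays between slides. In all, 0 of 48 members had every DAPT array above every DMSO array, against 0.898% of all genes, and 1 of 48 had every DAPT array below, against 0.971%. Under 75th percentile scaling and under quantile normalization the count was 0, as it was with the mean over the probes of each gene.

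The remaining subunits were nearer to 0. DYNC2LI1, the light intermediate chain of the ciliary dynein-2, read 0.69, 0.59, 1.68 and 1.44 on DAPT arrays, against 0.65, 0.87, 1.75 and 1.65 on DMSO arrays. The 2 slides were far apart and the conditions overlapped, with a difference of -0.13 (interval -0.87 to 0.61). The light intermediate chains of dynein-1, DYNC1LI1 and DYNC1LI2, had 0.03 and 0.02. The dynein-2 heavy chain DYNC2H1 and the light chains DYNLL1, DYNLL2, DYNLRB1 and DYNLT1 were between -0.06 and -0.01, and DYNLL1 is named DYL2 in RefSeq. The heavy chain of dynein-1 was not among the members.

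By size alone, 2 of 48 members were at least 1.3-fold higher with DAPT (log2 0.38 or more) and 3 were at least 1.3-fold lower. Among all genes the shares were 4.29% and 4.85%. The higher ones were TUBA1C and DYNC1I1, and the lower ones KIFC1, DYNLT3 and KIF14. Values were compared after rounding to 2 decimals, and KIF14, at -0.38, stood at the limit, while its other probe gave 0.07. No test enters this count.

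Several probes for 1 gene gave a further reading of the same arrays. At least 3 probes were tested for 23 members. They were all above 0 for 5 genes, all below 0 for 7, and mixed or at 0 for 11. The shares over all genes were not counted, so these numbers have no background. Genes with all probes below 0 were KIF15, KIF2C, KIF4A and KIFC1 among mitotic motors, KIF13A among axonal ones, and DYNLT3 and TUBB2C. The remaining mitotic motor with as many probes, KIF20A, had values of 0 to 0.16. Of the axonal ones KIF1B, KIF3A, KIF5B and KIF5C were mixed or at 0. Of 138 tested probes 1 had an unadjusted p under 0.05 without a block, against 2.28% of all 31504 probes. After adjustment 0 of them passed in the fits without a block, with the slide block and with the array number block, where 0.143%, 0.451% and 0.619% of all probes were called. Probes of a gene share the RNA of each array and are not replicates.

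**Figure D3:**
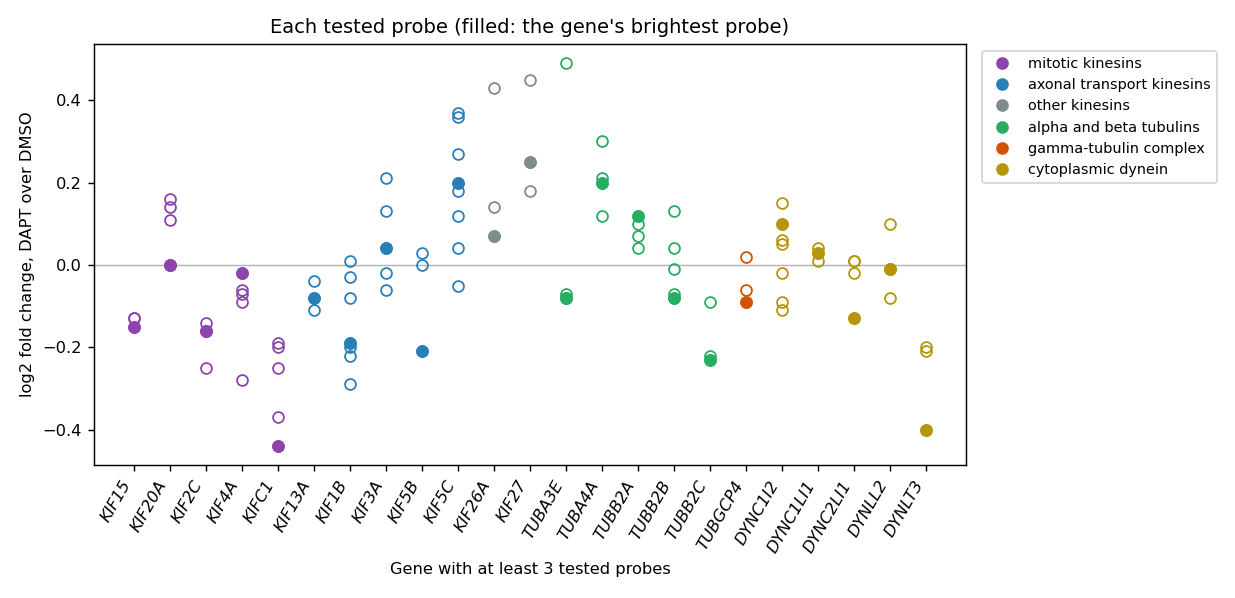
Log2 fold change of DAPT over DMSO (y axis) for every tested probe of the 23 genes with at least 3 tested probes, coloured by role, with the brightest probe filled. KIFC1 probes lie between -0.44 and -0.19 and KIF5C probes between -0.05 and 0.37.

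More members differed by slide than by treatment. Slide 2 against slide 1 was called for 19 of 48 members, against 43.1% of all genes, and the slide difference was larger than the DAPT difference for 35 of 48 (80.5% of all genes). Among gamma-tubulin complex genes 3 of 4 differed by slide, with a median of 0.60, and TUBGCP3 by 0.88 (limma, adjusted p = 0.00407). Among axonal kinesins KIF1A, KIF1B and KIF3B were higher on slide 2 by 0.65, 0.70 and 0.60. Among mitotic kinesins KIFC1 and KIF23 were higher by 0.84 and 0.62. KIF27, TUBA8 and TUBB1 ran the other way, with slide differences of -0.67, -0.66 and -0.56.

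Taken slide by slide, DAPT and DMSO arrays did not overlap for 8 of 48 members on slide 1 (26.2% of all genes) and for 14 of 48 on slide 2 (29.6%). Both slides gave the same direction without overlap for 3 of 48 members, against 6.48% of all genes. These were DYNC1I1, higher with DAPT, and KIFC1 and DYNLT3, lower with DAPT. They were chosen after their values were seen. The difference between conditions had the same sign on both slides for 21 of 48 members. Signs were taken after rounding, so a difference of 0 on only 1 slide counted as unlike. The share over all genes was not counted, so this number has no background.

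**Figure D4:**
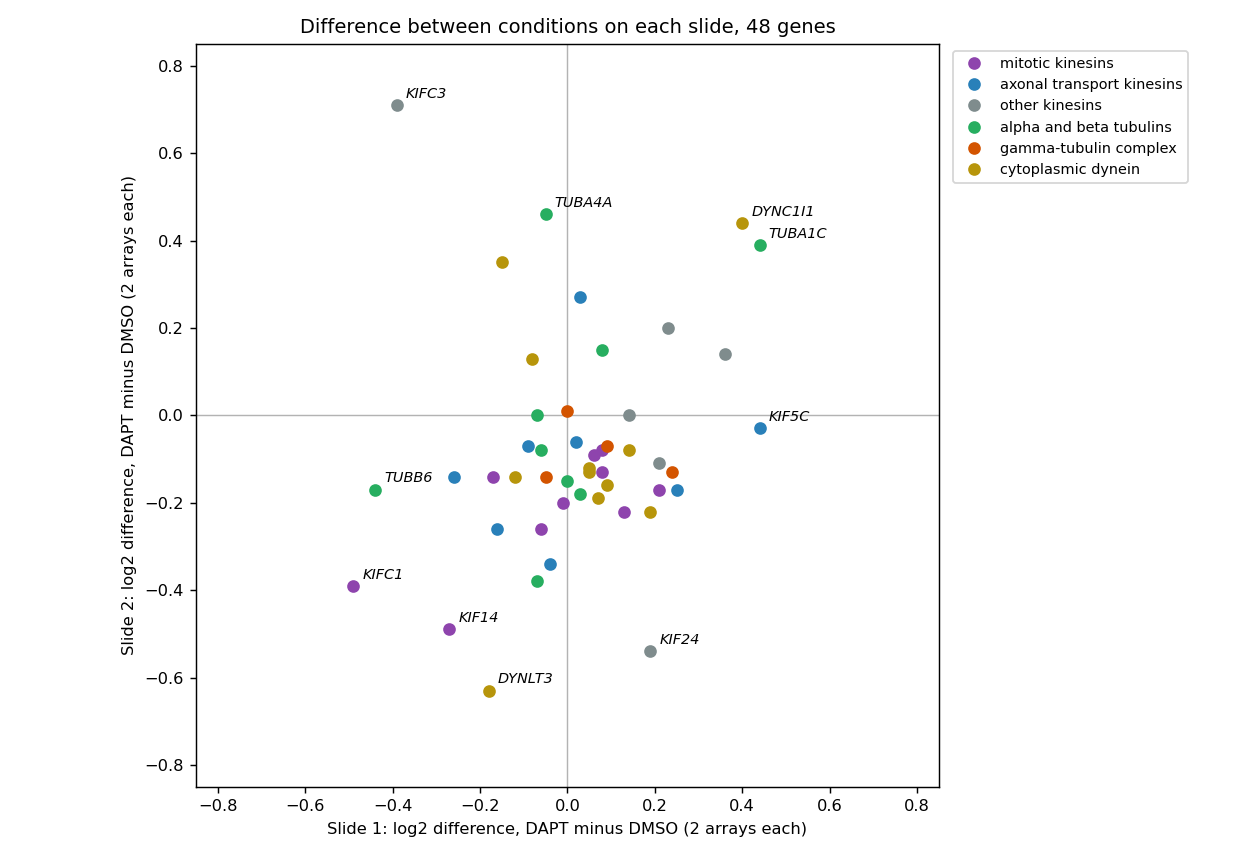
Log2 difference of DAPT minus DMSO on slide 1 (x axis) and slide 2 (y axis) for the 48 tested genes, 2 arrays per condition and slide, coloured by role. DYNC1I1 and TUBA1C lie in the upper right and KIFC1, KIF14 and DYNLT3 in the lower left, while KIFC3 stands at -0.39 on slide 1 and 0.71 on slide 2.

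The partners of these motors were also without a call. Of 16 tested genes of dynactin and the dynein regulators 0 passed the test, with a median of 0.00. For kinesin-1 light chains and cargo adaptors the median was -0.06 over 10 genes. There SYBU, which tethers syntaxin vesicles to kinesin-1, had all DAPT arrays below all DMSO arrays, at -0.85 (SE 0.287, limma adjusted p = 1, and 0.328 with the slide block). Tubulin folding and modifying enzymes had a median of -0.03 over 12 genes, and the polyglutamylase gene TTLL7 was separated at -0.34 (SE 0.198, adjusted p = 1). Microtubule-associated proteins had a median of 0.06 over 24 genes, with 16 above 0. Their highest were MAP2, the dendritic stabiliser, at 0.63 (SE 0.263), and doublecortin, DCX, at 0.60 (SE 0.274), both with adjusted p = 1. Mitotic spindle partners had a median of -0.07 over 26 genes, with 17 below 0, the same median as the mitotic kinesins. None of these 5 lists held a gene that passed the test without a block or with the slide block. Without overlap were 0 of 16, 1 of 10, 1 of 12, 0 of 24 and 0 of 26 genes of the lists, in the order given. Among all genes 0.971% had every DAPT array below every DMSO array and 0.898% every DAPT array above. SYBU and TTLL7 were picked out by that lack of overlap and not by a test.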

How the data were processed

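Total RNA of pooled prosencephalons was hybridised in one colour (Cy3) to 8 Agilent arrays, 4 per condition. The authors extracted the signals with Agilent Feature Extraction, and the deposited intensity values are background-corrected and not normalized between arrays. Their expression report holds pooled raw intensity means and gene symbols, of which the symbols were used here. The pooled means served to check that each array carried the right condition. Its log2 fold changes and fold columns are the authors' own comparison and were not used. The labels give 1 entry per condition with 4 array files, taken as the 4 sets of experiments of the methods, and array and slide numbers came from the array names. No per-sample column was left unused (0).

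In R 4.3.3 with limma 3.58.1, control spots were dropped, spots marked non-uniform or as population outliers were set aside (10 to 39 probes per array), saturated spots were kept (311 to 382 on the arrays of slide 1, 0 on slide 2), and log2 signals were taken minus each array's 50th percentile, as in the study's methods. A probe entered the test (31504 did) where either condition had it well above background on all of its 4 arrays. The fit was made with lmFit and eBayes, with Benjamini-Hochberg adjustment over all of them and a threshold of 0.05. Intervals are 95% intervals of these fits. The exact permutation test was two-sided over 70 splits. The scripts were tested on simulated data. Same-numbered arrays deviated together (correlations across probes of 0.679, 0.569, 0.767 and 0.505), and they also share a slide, so fits with a block for the slide or for the array number were run beside the fit without one. Further alternatives were the 75th percentile, quantile normalization, normexp with an offset of 50, no filter, the mean over a gene's probes, each slide alone and each array left out. The number of arrays limits the precision.

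The members and gene lists were chosen with earlier results of these data known. Named by rule are the tested mitotic and axonal kinesins, the 5 highest and 5 lowest of the other members and the untested member. The remaining members are mentioned beside them and are not counted as named. RefSeq names come from a table of assembly GRCg7b, matched by gene identifier. The array was annotated on another build, so no positions are given, and 10 probes that only RefSeq names as members were left out. Figures were drawn with matplotlib.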

Additional observations from a re-analysis of the deposited data

Results flagged for a closer look

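Among the 28 tested members chosen by the naming rule, 56 groups of 4 arrays were examined for 1 array far from the other 3. There 2 were found, where chance gives about 1 in 20 groups. The other tested members were not examined in this way. TUBA1C measured 6.56 on DAPT array 2, below 6.86 to 6.92 on the other DAPT arrays. KIF19 measured -1.14 on DMSO array 1, below -0.74 to -0.71 on the other DMSO arrays.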

How the results depend on the processing

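The number of members that passed the test was 0 in all 17 alternatives, and the lowest adjusted p of any member over them in limma was 0.154. Calls were rare over all probes too. They ran from 5 higher and 6 lower of 31536 probes without DAPT array 4 to 125 higher and 70 lower of 31504 with the array number block. A count of 0 of 48 therefore says little about these members. Only 4 arrays per condition on 2 unlike slides limit what could be seen. The count of members without overlap, 1 as reported (1.87% of all genes), was 0 with the 75th percentile (2.12% of all genes tested in that setting), 0 with quantile normalization (2.33%), 0 when the probes of each gene were averaged (1.94%), 4 with normexp (12.6%), 8 within slide 1 (26.7%) and 14 within slide 2 (30.2%). It was 1 to 3 when 1 array was left out, with 2 without DAPT array 1, 2 or 3 and 3 without DMSO array 1 or 4, where 3.05% to 3.84% of all genes did not overlap. With normexp the median of mitotic kinesins was -0.71 and that of axonal kinesins -0.65, against a median of all tested probes of -0.31. An unadjusted p under 0.05 in limma was reached by 28 of 48 members, each at its brightest probe, and by 9587 of 31504 tested probes, dimmer ones included. Neither these shares nor the distances from the median of all probes compare like probes, so they show no fall particular to the members. Relative to the shift of all probes, 23 of the 28 named members were below 0 in this setting. The cause was not tested. Leaving out 1 array gave medians of -0.18 to 0.01 for mitotic and -0.17 to 0.06 for axonal kinesins. Fits with the array number as a replicate block or the slide as a block changed no call. Every block held as many DAPT as DMSO arrays, so these fits could not alter a fold change, a sign or a median.

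Signs turned for single genes, all without a call. With normexp the values were -0.16 for DYNC1I1, -0.42 for KIF18A, -0.64 for KIF3A, -0.39 for KIF5C, -0.32 for TUBA1C and -0.28 for TUBA4A, and relative to the shift of all probes 4 of the 28 named members stood opposite to the reported sign. Within slide 1 they were 0.13 for KIF11, 0.08 for KIF23, 0.19 for KIF24, 0.02 for KIF3B, 0.06 for KIF4A and -0.05 for TUBA4A. Within slide 2 they were -0.17 for KIF18A, -0.17 for KIF3A and -0.03 for KIF5C. With the mean over its probes KIF3B had 0.03. KIF20A, at 0 as reported, had no sign to turn and ran from -0.08 to 0.11 when 1 array was left out. In the same fits 13 of 28 genes turned sign. Their ranges were -0.32 to 0.05 for DYNC2LI1, -0.15 to 0.03 for KIF11, -0.22 to 0.04 for KIF13A, -0.13 to 0.19 for KIF18A, -0.20 to 0.01 for KIF18B, -0.34 to 0.02 for KIF1B, -0.01 to 0.36 for KIF21B, -0.21 to 0.12 for KIF23, -0.37 to 0.06 for KIF24, -0.28 to 0.01 for KIF2C, -0.07 to 0.22 for KIF3A, -0.17 to 0.16 for KIF3B and -0.13 to 0.11 for KIF4A.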
